A study of Homo sapiens with 8 samples.

Results

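The ADAM and ADAMTS genes encode zinc metalloproteases of the cell surface and of the extracellular matrix, and 44 of the 19970 protein-coding genes of the GENCODE annotation carry a symbol of the form ADAM, ADAMTS or ADAMTSL followed by a number. They comprise 20 ADAM, 19 ADAMTS and 5 ADAMTSL genes. The rule uses only the symbol and no measured value, although the family itself was picked with earlier results of these data known. ADAMs are mostly anchored in the membrane, where the catalytically active ones cut other membrane proteins close to the cell surface and release growth factors, cytokines and adhesion molecules, a step called shedding. ADAMTS proteases are secreted and carry thrombospondin repeats that bind them to matrix, where they trim procollagens, degrade aggrecan and versican or act on fibrillin microfibrils. ADAMTSL proteins share the repeats but lack the protease domain. In epithelial cells ADAM10 and ADAM17 are known as the main sheddases of adhesion molecules and of ligands of the EGF receptor.

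Chromatin accessibility at these genes was measured by ATAC-seq, which inserts sequencing adapters with a transposase wherever nucleosomes leave the DNA free. The cells were wild-type MCF10A, a non-tumorigenic, immortalised epithelial line of the human breast, kept in medium with serum, EGF, hydrocortisone, cholera toxin and insulin. They received 5 ng/ml recombinant human TGFβ1 for 6, 24 or 72 h, or solvent (BSA in PBS), with 2 replicates of each condition and 8 libraries in all. Under TGFβ1 these cells undergo an epithelial-mesenchymal transition (EMT), and the comparison with solvent addresses which sites gain or lose accessibility on the way. The authors called peaks on both replicates of a condition together, so that each condition is represented by 1 peak list, no difference given here has a replicate error and no p-value can be given. All 3 comparisons use the same solvent list. By its labels it belongs to time 0, while the study's own drawing of the experiment gives solvent the longest treatment time.

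The solvent list held 86209 peaks, and the TGFβ1 lists held 107656 (6 h), 118433 (24 h) and 116720 (72 h). Per the study's methods all libraries had the same target depth, but the number of reads left after filtering is not given in the sources used here, which limits the precision of every value. Each peak has an AUC, the area under the significance curve of the peak caller, and the lists begin at an AUC of 200, so a region without a peak is listed at 0 and is not known to be closed. Overlapping peaks of the 4 lists were merged into 126658 regions, of which 382 overlapped the body of an ADAM or ADAMTS gene or the 20 kb on either side of it. All AUC values below are scaled: they were divided by 1.36, 1.30 and 1.19 at 6, 24 and 72 h, which brings the median ratio to solvent to 1 over the regions within 3 kb of any transcription start site (TSS). The AUC was then summed per gene. Because the cells were measured in bulk, a site that was open in more cells and a site that was more open in each cell cannot be told apart. The identity of the line was checked by its markers: all 9 epithelial and basal markers had a peak within 3 kb of a TSS in each list, among them CDH1, KRT5, KRT14 and TP63, while CD3E and ALB had none. The leukocyte gene PTPRC and the endothelial genes PECAM1 and CDH5 also had such peaks in each list, and their unscaled AUC was higher at 72 h than in solvent. It went from 1510 to 3335 for PTPRC, from 1633 to 2804 for PECAM1 and from 625 to 2663 for CDH5. Among the epithelial markers KRT14 went from 2652 to 7600 and EPCAM from 2632 to 2535. The part of other cells in any result was not tested.

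The sequences that carry the main observation lie mostly in introns and flanks of ADAM and ADAMTS genes, where a peak appeared or grew under TGFβ1. Each run below is the 201 bases around the summit of the strongest peak, on the plus strand of GRCh38 and written 5′ to 3′. Capitals mark every match to TGAGTCA, the binding motif of AP-1 (JUN and FOS proteins), and to TGTGGTT, the core motif of RUNX factors, which reads AACCACA on the opposite strand. The regions called gained are, by AUC at 72 h, the 5 largest with a peak at every time of TGFβ1 and none in solvent. The others are 4 of the 5 regions with the highest ratio at 72 h among those with a peak in every list and a solvent AUC of at least 400, and the fifth, in ADAM32, is described with its gene and not printed.
ADAMTS6 intron, gained, chr5:65190479-65190679: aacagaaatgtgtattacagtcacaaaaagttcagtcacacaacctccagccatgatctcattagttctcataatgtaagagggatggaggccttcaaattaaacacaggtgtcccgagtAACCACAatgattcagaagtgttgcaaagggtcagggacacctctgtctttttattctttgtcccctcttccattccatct
ADAM12 intron, gained, chr10:126060728-126060928: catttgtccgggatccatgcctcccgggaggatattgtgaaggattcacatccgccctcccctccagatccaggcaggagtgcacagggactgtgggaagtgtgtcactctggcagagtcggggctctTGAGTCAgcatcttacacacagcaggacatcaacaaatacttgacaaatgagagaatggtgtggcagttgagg
ADAMTS12 intron, gained, chr5:33788997-33789197: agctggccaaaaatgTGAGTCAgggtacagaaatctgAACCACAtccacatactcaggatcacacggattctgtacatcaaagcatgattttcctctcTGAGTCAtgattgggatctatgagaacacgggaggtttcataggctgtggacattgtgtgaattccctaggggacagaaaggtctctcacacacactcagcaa
ADAM19 downstream flank, gained, chr5:157385069-157385269: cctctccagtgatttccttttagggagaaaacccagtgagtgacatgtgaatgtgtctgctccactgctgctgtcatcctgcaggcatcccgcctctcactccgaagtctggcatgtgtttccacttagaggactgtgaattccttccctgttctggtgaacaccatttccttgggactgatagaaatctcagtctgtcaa
ADAMTS19 intron, gained, chr5:129506195-129506395: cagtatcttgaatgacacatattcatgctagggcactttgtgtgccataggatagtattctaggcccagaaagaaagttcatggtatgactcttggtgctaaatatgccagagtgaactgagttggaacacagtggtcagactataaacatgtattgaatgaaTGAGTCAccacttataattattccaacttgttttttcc
ADAMTS3 exon, every list, chr4:72319815-72320015: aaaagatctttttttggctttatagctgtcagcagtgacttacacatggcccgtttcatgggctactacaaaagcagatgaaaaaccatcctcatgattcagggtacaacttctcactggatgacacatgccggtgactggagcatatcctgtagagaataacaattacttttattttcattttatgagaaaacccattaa
ADAMTS6 intron, every list, chr5:65172593-65172793: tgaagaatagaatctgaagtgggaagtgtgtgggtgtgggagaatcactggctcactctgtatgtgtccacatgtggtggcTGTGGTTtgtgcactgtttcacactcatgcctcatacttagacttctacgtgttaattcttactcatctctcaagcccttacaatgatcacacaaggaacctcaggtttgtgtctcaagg
ADAMTS18 near an own TSS, every list, chr16:77288246-77288446: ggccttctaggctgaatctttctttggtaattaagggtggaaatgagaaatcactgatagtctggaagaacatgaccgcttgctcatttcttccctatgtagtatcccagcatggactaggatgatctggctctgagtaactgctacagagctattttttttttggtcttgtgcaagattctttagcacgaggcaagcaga
ADAMTS14 upstream flank, every list, chr10:70664805-70665005: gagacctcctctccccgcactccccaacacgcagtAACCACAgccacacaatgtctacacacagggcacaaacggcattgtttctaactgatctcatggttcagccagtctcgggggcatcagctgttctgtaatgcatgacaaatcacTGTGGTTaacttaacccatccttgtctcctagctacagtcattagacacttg

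The ADAMTS6 region gained under TGFβ1 (chr5:65190304-65190967) lay 291 kb downstream of the gene start and was listed at 0 in solvent, with an AUC of 1000, 1658 and 1991 at 6, 24 and 72 h. The ADAM12 region (chr10:126060348-126061038), 328 kb into the gene, was listed at 0 in solvent and had 725, 1186 and 1318. In ADAMTS12 the gained region (chr5:33788887-33789396) had 192, 765 and 1067, and in ADAMTS19 the region chr5:129506151-129506396 had 345, 624 and 895. Each of these was lower at 6 h than at 24 h, while their size at 72 h is what chose them. The second ADAMTS6 region (chr5:65172496-65173024) was already present in solvent with an AUC of 514 and reached 986, 1529 and 1671, which is 3.25-fold at 72 h. The ADAMTS14 region (chr10:70664619-70665223), 7.6 kb upstream of the gene start, had 530 in solvent and 833, 1450 and 1577 under TGFβ1, or 2.98-fold at 72 h. The remaining gained region, chr5:157384917-157385311 in the downstream flank of ADAM19, was listed at 0 in solvent and had 203, 926 and 962, but it lay 611 bp from a TSS of CYFIP2, an actin regulator gene, and is not specific to ADAM19.

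Over the whole family, 43 of the 44 genes had at least 1 region, and ADAM2, which encodes a sperm surface protein, had none. Another 5 genes had no solvent peak (ADAM7, ADAM18, ADAM20, ADAM28 and ADAMTS12), which leaves 38 genes with a ratio to solvent at each time. At 6 h, 8 of the 38 (21.1%) had a summed AUC at least 1.5-fold higher than in solvent, beside 4.44% of all protein-coding genes with a ratio. At 24 h it was 12 of 38 (31.6%), beside 10.5% of all, and at 72 h 14 of 38 (36.8%), beside 11.6% of all. The family's share was thus above that of all genes at each time. Over distal regions alone, which lie more than 3 kb from any TSS, the counts were 6, 18 and 20 of 32 genes, beside 15.9%, 31.7% and 35.2% of all, so that at 6 h the share was close to the background. No member was lower by 1.5-fold at any time, which has little weight because only 0.0557%, 0.217% and 0.401% of all genes were. The median log2 ratio of the 38 genes was 0.12, 0.32 and 0.39 at 6, 24 and 72 h, and that of all protein-coding genes was 0.04, 0.08 and 0.08.

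**Figure D1:**
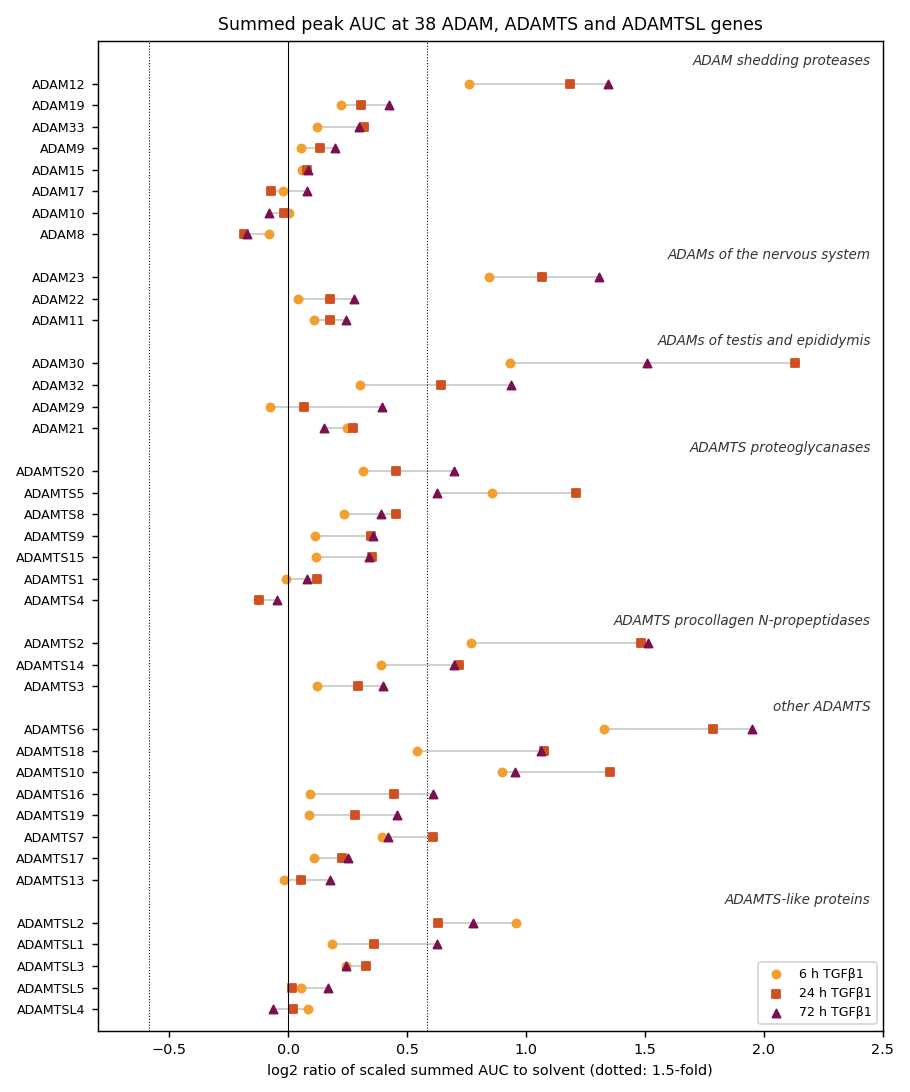
Log2 ratio of the scaled summed AUC to solvent (horizontal axis) for each of the 38 genes with a solvent peak, grouped by role, with circles for 6 h, squares for 24 h and triangles for 72 h of TGFβ1. Dotted lines mark 1.5-fold. ADAMTS6 is the farthest to the right at 72 h and ADAM8 the farthest to the left.

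The genes past 1.5-fold at all 3 times were ADAM12, ADAM23, ADAM30, ADAMTS2, ADAMTS5, ADAMTS6, ADAMTS10 and ADAMTSL2. ADAM32, ADAMTS14 and ADAMTS18 joined them at 24 h and 72 h, ADAMTS7 at 24 h alone, and ADAMTS16, ADAMTS20 and ADAMTSL1 at 72 h alone. With scaling over all shared regions, ADAMTS5, ADAMTS14, ADAMTS16, ADAMTS20 and ADAMTSL1 were short of 1.5-fold at 72 h, and ADAM32, ADAMTS7 and ADAMTSL2 at 24 h. In 17 of the 38 genes the summed AUC was higher in each list than in the one before it in time. The 72 h list held the highest value of 21 genes, the 24 h list that of 12, the 6 h list that of 3 and the solvent list that of 2, ADAM8 and ADAMTS4. These counts over time were not made for all protein-coding genes. Sums above solvent, of any size, were found in 32, 34 and 34 of the 38 genes at 6, 24 and 72 h. The shares of all protein-coding genes were 60.7%, 64.5% and 64.7%.

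These sums grow with the number and width of the peaks. Over the 38 genes, the median ratio of the bases covered by peaks to those of solvent was 1.31, 1.38 and 1.39 at 6, 24 and 72 h, and 1.21, 1.21 and 1.15 over all protein-coding genes. The AUC per covered base, scaled in the same way, had a median log2 ratio of -0.04, 0.02 and 0.01 over the 38 genes and of -0.08, -0.07 and -0.05 over all. On this measure none of the 38 genes was past 1.5-fold in either direction at any time, beside 0.417%, 0.902% and 1.01% of all protein-coding genes that were higher. The higher sums thus went with more and wider peaks, and the AUC per base stayed within 1.5-fold of solvent in each of the 38 genes. ADAMTS2 stood highest with 0.48 at 72 h and ADAMTS16 lowest with -0.42. This holds for sums per gene and not for each region. Among regions chosen below for their high ratio at 72 h, the unscaled AUC per base went from 1.30 in solvent to 3.04 in ADAMTS3. In ADAMTS14 it went from 2.09 to 3.09. Among those chosen for a low ratio, it went from 2.36 to 1.85 in ADAM22 and from 1.99 to 2.41 in ADAMTS14. The scaling at 72 h takes 0.18 off such ratios on the log2 scale.

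**Figure D2:**
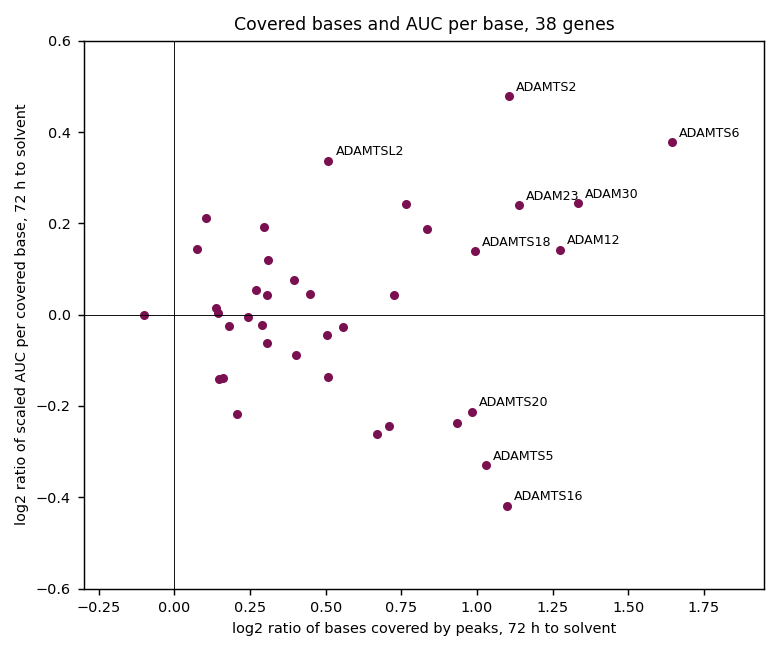
Log2 ratio of the bases covered by peaks (horizontal axis) and of the scaled AUC per covered base (vertical axis), 72 h of TGFβ1 to solvent, with 1 point for each of the 38 genes. The points spread from -0.10 to 1.64 along the horizontal axis and from -0.42 to 0.48 along the vertical one.

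Of the 9 ADAM shedding proteases, 8 had a ratio to solvent, and among these ADAM12 was past 1.5-fold at each time and no other gene was. ADAM12, which sheds the EGF receptor ligand HB-EGF, had a summed AUC of 11142 in solvent and of 18872, 25339 and 28292 under TGFβ1. That is 2.54-fold at 72 h, with peaks in 17, 24, 28 and 31 regions. Its covered bases went from 5.94 kb in solvent to 14.4 kb at 72 h, while its AUC per base had a log2 ratio of 0.14. The 17 regions with a peak in every list were themselves higher by 0.94 on the log2 scale at 72 h, and regions without a solvent peak held 24.5% of the AUC at 72 h. The difference was thus spread over old and new regions along the gene.

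The 31 ADAM12 regions did not move alike. Around the first TSS of the gene, a region 1.25 kb into it had an AUC of 336 in solvent and of 314, 317 and 361 under TGFβ1, and a weaker one 0.24 kb into it was listed at 0 in solvent and had 331 at 72 h. A strong intronic region 37.7 kb in was also nearly level, with 1952 in solvent and 1988 at 72 h. By contrast, an intronic region 313 kb in (chr10:126074878-126075520) had 213 in solvent and 1146 at 72 h, or 5.37-fold. At the start of a shorter annotated transcript about 322 kb in, one region had 482 in solvent and 948 at 72 h, and its neighbour was listed at 0 in solvent and had 822. The ratio of 1.59 on the log2 scale for the regions within 3 kb of an own TSS of ADAM12 therefore rested mostly on this internal start rather than on the first one.

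The classical sheddases were close to their solvent level. ADAM10, which releases Notch and cadherin ectodomains, had summed AUC values of 5037, 5055, 4973 and 4761, a log2 ratio of -0.08 at 72 h. ADAM17, which releases TNF and ligands of the EGF receptor, had 14598, 14403, 13869 and 15443, or 0.08. ADAM8, a sheddase best known from leukocytes, had 18178, 17215, 16004 and 16126, or -0.17, and was the lowest of the 38 genes at 72 h. The sign of these small differences depended on the scaling: without scaling of the lists ADAM8 was at 0.07 and ADAM10 at 0.17, and with scaling over all shared regions ADAM17 was at -0.06. One ADAM8 region within 3 kb of an own TSS (chr10:133261275-133262385) had 1887 in solvent and 1160 at 72 h, or 0.615-fold, the second lowest ratio among regions with a peak in every list and a solvent AUC of at least 400.

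ADAM9, which can shed precursors of EGF family ligands, had 15385 in solvent and 17613 at 72 h, a log2 ratio of 0.20. Its own TSS regions had a log2 ratio of -0.01, and its distal regions, defined as lying more than 3 kb from any TSS, one of 0.93. Of these, the region 116 kb downstream of its start lies inside the neighbouring gene ADAM32 and belongs to both windows. ADAM15, whose disintegrin domain binds integrins, had 19946 in solvent and 21132 at 72 h, a ratio of 0.08 that became -0.06 with scaling over all shared regions. ADAM19, a sheddase of neuregulin, had 23555, 27451, 29148 and 31616, or 1.34-fold at 72 h, and its TSS region (chr5:157574974-157576391) had 2503 in solvent and 3683 at 72 h. Regions at TSSs of other coding genes held 22.1% of its solvent AUC. ADAM33 had 1661 in solvent and 2044 at 72 h. ADAM28 was listed at 0 in solvent, with 1 region of 203, 348 and 225 under TGFβ1, close to the threshold of the lists.

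**Figure D3:**
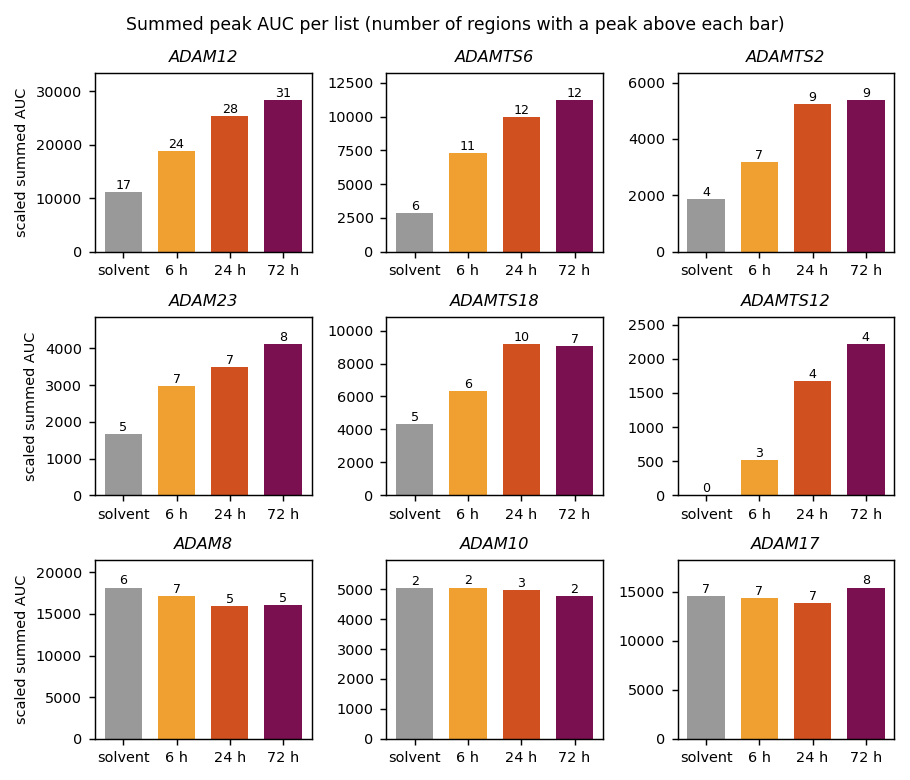
Scaled summed AUC (vertical axis, starting at 0) in the 4 lists for 9 genes, with the number of regions holding a peak above each bar. ADAM12, ADAMTS6, ADAMTS2, ADAM23 and ADAMTS12 have their tallest bar at 72 h, ADAMTS18 at 24 h, while the bars of ADAM8, ADAM10 and ADAM17 are of similar height in all lists.

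Of the ADAMs known from the nervous system, which lack protease activity, ADAM23 was past 1.5-fold at each time. ADAM23 and ADAM22 are receptors of the secreted synaptic protein LGI1. ADAM23 had 1665, 2988, 3487 and 4122, or 2.48-fold at 72 h, with peaks in 5, 7, 7 and 8 regions. The region at its TSS had 457 in solvent and 553 at 72 h, so that most of the difference lay in introns, where the region 172.8 kb in (chr2:206616067-206616456) was listed at 0 in solvent and had 383, 488 and 690. ADAM22 had 6358 in solvent and 7706 at 72 h, but 69.7% of its solvent AUC lay at TSSs of other coding genes, namely SRI. Its own TSS regions had 1181, 1669, 1945 and 2312, a log2 ratio of 0.97 at 72 h. The one that covers its first TSS had 816 in solvent and 1169 at 72 h. The other, 251 kb in and within 3 kb of an internal TSS, had 365 and 1143. An ADAM22 region 15.3 kb upstream of its start (chr7:87918786-87919106) had 746 in solvent and 430 at 72 h, or 0.576-fold, the lowest ratio among regions with a peak in every list and a solvent AUC of at least 400. ADAM11 had 5460 in solvent and 6465 at 72 h.

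The 8 ADAMs known mainly from testis and epididymis, where several act in sperm maturation and fertilization, had few regions. ADAM2 had no region, and ADAM7, ADAM18 and ADAM20 were listed at 0 in solvent and at 6 h and had 389, 297 and 179 at 72 h. ADAM30 was past 1.5-fold at each time with 234, 448, 1025 and 666, but it had only 3 regions, all in its downstream flank. Its solvent value was 1 peak close to the threshold of the lists, in a region that covers a TSS of NOTCH2P1. ADAM30 was not among the genes past 1.5-fold with a minimum AUC of 400 or with 5 kb on either side. ADAM32 had the largest sums of these genes, with 2861, 3525, 4470 and 5476, or 1.91-fold at 72 h. Its leading region, in an intron 6.20 kb from the gene start, had 615, 1077, 1620 and 1827, or 2.97-fold, and is the one shared with the window of ADAM9. ADAM29 and ADAM21, with 1165 and 1235 in solvent, had log2 ratios of 0.39 and 0.15 at 72 h. The solvent AUC of each lay in 1 region within 3 kb of an own TSS that also covers a TSS of another gene, GLRA3 beside ADAM29 and COX16 beside ADAM21.

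Among the 7 ADAMTS proteoglycanases, which cut aggrecan or versican, ADAMTS5 and ADAMTS20 were past 1.5-fold at 72 h. ADAMTS5, a main aggrecanase of cartilage, had 821, 1485, 1901 and 1269, highest at 24 h. Its promoter region (chr21:26966741-26967884) had 282, 915, 1341 and 771, or 2.74-fold at 72 h, whereas its only other region, 15.8 kb upstream, had 539, 570, 560 and 497. The summed ratio of ADAMTS5 at 72 h, 0.63 on the log2 scale, was -0.12 over its distal region alone and -0.33 as AUC per base, and 0.48 with scaling over all shared regions, which is short of 1.5-fold. ADAMTS20 had 1488 in solvent and 2415 at 72 h in up to 4 regions.

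ADAMTS1, an aggrecan and versican protease, had nearly equal sums of 5379, 5342, 5850 and 5678, but its regions moved in opposite directions. The promoter region (chr21:26844359-26846013), which covers the TSS, had 1785, 1582, 1325 and 1115, or 0.625-fold at 72 h. A region 18.5 kb from the gene start in the downstream flank had 701, 730, 995 and 1122, and another 9.79 kb from it was listed at 0 in solvent and at 6 h and had 220 and 578 later. The log2 ratio at 72 h was -0.23 over its own TSS regions and 1.28 over its distal regions. The sum, 0.08, became -0.07 with scaling over all shared regions.

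ADAMTS4, an aggrecanase, had 20168, 18494, 18532 and 19517, a log2 ratio of -0.05 at 72 h that became 0.20 without scaling. Regions at TSSs of other protein-coding genes held 62.7% of its solvent AUC. Its own TSS region nearest the gene start had 1292 in solvent and 1118 at 72 h, and its distal AUC had a log2 ratio of 1.35. ADAMTS9, a versican protease, had 6637, 7183, 8455 and 8509, or 0.36 at 72 h. The strongest ADAMTS9 region, 2.03 kb into the gene, had 3871 in solvent and 3805 at 72 h, while an intronic region 92.4 kb in had 342, 643, 1016 and 1263, or 3.70-fold. ADAMTS8 and ADAMTS15, which neighbour each other on chromosome 11, had ratios of 0.39 and 0.34.

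All 3 procollagen N-propeptidases, which remove the amino-terminal propeptide of fibrillar collagens, had higher sums at each time of TGFβ1 than in solvent. This sets them little apart, because 32, 34 and 34 of the 38 genes were above solvent at 6, 24 and 72 h. Of all protein-coding genes it was 60.7%, 64.5% and 64.7%. ADAMTS2, the main enzyme for type I procollagen, had 1879, 3199, 5256 and 5367, or 2.86-fold at 72 h, with peaks in 4, 7, 9 and 9 regions. No ADAMTS2 region lay within 3 kb of its TSS, and all gained at 72 h were intronic. The strongest, 79.7 kb into the gene, had 1024 in solvent and 1803 at 72 h, and the one 86.1 kb in had 362 and 1171, or 3.23-fold. ADAMTS14, which also cuts procollagen, had 6276, 8235, 10337 and 10180, or 1.62-fold at 72 h. ADAMTS3, which cuts procollagen and activates VEGFC, had 9926 in solvent and 13094 at 72 h, or 1.32-fold, short of the threshold.

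ADAMTS3 again held regions of opposite direction. A region in an annotated exon 249 kb downstream of the gene start (chr4:72319597-72320234) had 458, 1020, 1222 and 1614, or 3.53-fold at 72 h, the highest ratio among regions with a peak in every list and a solvent AUC of at least 400. Nearby, a region within 3 kb of an own TSS (chr4:72311375-72311620) had 296 in solvent and 182 at 6 h and was listed at 0 later. The own TSS regions of ADAMTS3 together had a log2 ratio of -0.25 at 72 h and its distal regions one of 1.01. ADAMTS14 had a log2 ratio of 1.85 over its own TSS regions, from 344 in solvent to 1239 at 72 h, and one region in its downstream flank (chr10:70775090-70775508) with 742 in solvent and 510 at 72 h, or 0.688-fold. This flank region lay 2751 bp from a TSS of TBATA and is not specific to ADAMTS14.

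Of the 9 other ADAMTS genes, ADAMTS6, ADAMTS10, ADAMTS16 and ADAMTS18 were past 1.5-fold at 72 h. ADAMTS6, a relative of ADAMTS10 that acts on fibrillin and on cell adhesion, had 2898, 7278, 10007 and 11204, or 3.87-fold at 72 h, the highest ratio of the 38 genes. Peaks were present in 6, 11, 12 and 12 ADAMTS6 regions, and regions without a solvent peak held 40.1% of the AUC at 72 h. Apart from 1 weak region 86.0 kb in, they fell into 2 groups along the gene, one around the first TSS and one between 268 and 324 kb from it. The region that covers the first TSS had 942 in solvent and 1106 at 72 h, or 1.17-fold. In the distant group, the region 283 kb in (chr5:65198479-65199282), at the start of a shorter transcript, had 317 in solvent and 1817 at 72 h, or 5.73-fold.

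**Figure D4:**
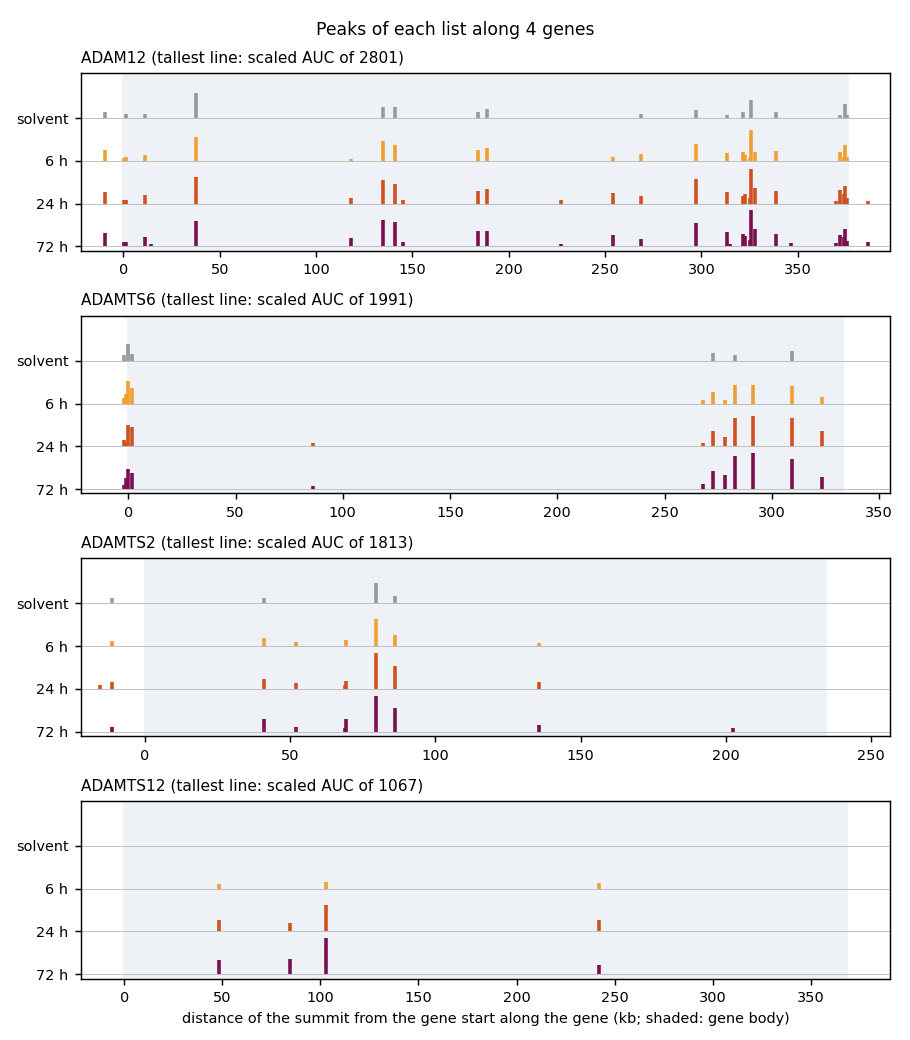
Peaks of the 4 lists along ADAM12, ADAMTS6, ADAMTS2 and ADAMTS12, with the distance of the summit from the gene start in kb (horizontal axis, gene body shaded) and, for each list, lines whose height is the scaled AUC relative to the tallest line of the gene. New lines appear between the old ones in ADAM12 and ADAMTS2, and ADAMTS12 has lines under TGFβ1 only.

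ADAMTS12, a protease of the cartilage protein COMP, went from no region in solvent to 3, 4 and 4 regions under TGFβ1, with sums of 0, 521, 1674 and 2217. All 4 ADAMTS12 regions were intronic, and the largest is the one printed above. ADAMTS7, its closest relative, had 7319, 9609, 11148 and 9778, highest at 24 h, with a log2 ratio of 0.61 then and of 0.42 at 72 h. ADAMTS18 had 4355, 6343, 9188 and 9093, or 2.09-fold at 72 h. Next to the start of a shorter transcript, 147 kb into ADAMTS18, one region (chr16:77287996-77288645) had 410, 830, 1045 and 1317, or 3.21-fold, and its neighbour was listed at 0 in solvent and at 6 h and had 758 and 806 later. Those 2 regions gave ADAMTS18 an own TSS ratio of 2.37 at 72 h on the log2 scale, the highest among members with such a ratio.

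ADAMTS10, which acts in fibrillin microfibrils, had 1519, 2830, 3877 and 2939, highest at 24 h and 1.93-fold at 72 h. Without the regions at TSSs of the adjacent gene MYO1F, ADAMTS10 had 1519 in solvent and 2713 at 72 h, a log2 ratio of 0.84. With the gene body and 5 kb on either side the ratio was 0.59, still past 1.5-fold. Over the regions whose nearest coding TSS is that of ADAMTS10 itself, its log2 ratio at 72 h was -0.02, so the 72 h difference is not one of its own promoter. The region within 3 kb of its TSS had 255, 729, 697 and 252, a difference seen at 6 and 24 h only. ADAMTS16 had 4796 in solvent and 7313 at 72 h, or 0.61 on the log2 scale, just past the threshold, and ADAMTS19 had 6942 and 9540, or 0.46. ADAMTS17 had 24491 in solvent and 29186 at 72 h over 30 regions, or 0.25. ADAMTS13, which cuts von Willebrand factor, had a ratio of 0.18, with 79.9% of its solvent AUC at TSSs of CACFD1, REXO4 and SLC2A6.

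The 5 ADAMTS-like genes differed among themselves. ADAMTSL1, a secreted matrix protein gene of 1004 kb, had peaks in 12 regions in solvent and in 18, 24 and 26 under TGFβ1, and its sum went from 13602 to 15464, 17462 and 20983, or 0.63 on the log2 scale at 72 h. Its 11 regions with a peak in every list had a ratio of 0.21, so regions without a solvent peak, which held 26.4% of the AUC at 72 h, made up much of the difference. ADAMTSL2, which binds fibrillin, was past 1.5-fold at each time with only 207, 403, 321 and 355, close to the threshold of the lists. ADAMTSL3 had 11769 in solvent and 13926 at 72 h, or 0.24, and ADAMTSL5 had 0.17. ADAMTSL4, another fibrillin-binding protein gene, had 46620, 49468, 47303 and 44579, the largest sums of the family, of which regions at TSSs of MCL1 held 48.3% in solvent, and its log2 ratio of -0.06 at 72 h became 0.18 without scaling.

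Counted by region, peaks absent from solvent were present in 64 of the 382 regions (16.8%) at 6 h, beside 19.3% of all merged regions, in 108 (28.3%) at 24 h, beside 27.6%, and in 109 (28.5%) at 72 h, beside 27%. The share of new regions was thus close to that of the genome as a whole. Solvent peaks were absent from 1 region (0.262%) at 6 h, beside 0.465% of all, from 9 (2.36%) at 24 h, beside 1.21%, and from 11 (2.88%) at 72 h, beside 2.24%. A peak was present in every list at 235 regions (61.5%, beside 62.6% of all regions) and at every time of TGFβ1 but not in solvent at 56 (14.7%, beside 14.3% of all regions). Of the 109 regions gained at 72 h, 75 (68.8%) lay in an intron of the family member and 13 (11.9%) within 3 kb of one of its TSSs. Of the regions with a peak in every list, counted per gene because 4 regions of the family lie in the windows of a pair of members, 43.5% were intronic and 30.5% lay within 3 kb of an own TSS. These locations were not counted over all merged regions. Of all regions gained at 72 h, 27079 of 34232 were distal, beside 47307 of the 79275 with a peak in every list. In the family it was 81 of 109 and 121 of 235, so the genome had the same direction.

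The largest solvent peaks that were absent at 72 h were all weak. ADAMTS17 held 2 of them, one within 3 kb of an own TSS (chr15:99977402-99977587) with 365 in solvent and 216 at 6 h, and one downstream (chr15:99956133-99956475) with 322 and 194. An ADAMTSL3 region in an annotated exon (chr15:83890659-83890873) had 286 and 174, and an ADAMTSL4 region in its downstream flank (chr1:150576810-150577515) had 282, 436 and 254 before it was listed at 0 at 72 h. The ADAMTSL4 one lay 1962 bp from a TSS of MCL1 and is not specific to ADAMTSL4. Among regions with a peak in every list, an intronic ADAMTSL3 region (chr15:83845281-83845569) had 611 in solvent and 411 at 72 h, or 0.672-fold.

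The regions with peaks in both lists told proximal and distal sites apart. Of the distal ones at family members, 25 of 126 (19.8%) were at least 1.5-fold higher at 6 h, beside 14.5% of all distal regions, 43 of 121 (35.5%) at 24 h, beside 25.5%, and 46 of 121 (38.0%) at 72 h, beside 29.3%. Their median log2 ratio was 0.18, 0.34 and 0.47, and that of all distal regions was 0.12, 0.23 and 0.27. The proximal regions at family members had medians of 0.05, 0.03 and 0.05, where all proximal regions are at 0 because the scaling sets them there. Of these family regions, 15 of 119 (12.6%), 22 of 116 (19.0%) and 26 of 114 (22.8%) were at least 1.5-fold higher at 6, 24 and 72 h. The shares of all proximal regions were 7.49%, 12.6% and 13.4%. Both family and genome thus had the larger differences away from TSSs. The values of the family were the higher ones at each time, at distal and at proximal regions. Distal regions of 1 gene share its surroundings and are not independent.

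Per gene, 26 members had both an own TSS ratio and a distal ratio at 72 h, and in 19 of them the distal one was the higher. The median was 0.76 over their distal sums and 0.06 over their own TSS sums. The same comparison was not made for all protein-coding genes. By region, all distal regions had a median of 0.27 at 72 h, while all proximal ones are at 0 by the scaling. ADAMTS1, ADAMTS3, ADAMTS4, ADAMTS7, ADAMTS10 and ADAM9 had own TSS ratios between -0.25 and -0.01 and distal ratios between 0.93 and 1.68. ADAMTS5, ADAM19, ADAM22, ADAMTS14 and ADAMTS18 were of the opposite kind, with own TSS ratios of 0.71 or more that were above their distal ratios. Own TSS regions include those at internal starts, as in ADAM22 and ADAMTS18. ADAM12 and ADAMTS6 were high in both.

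**Figure D5:**
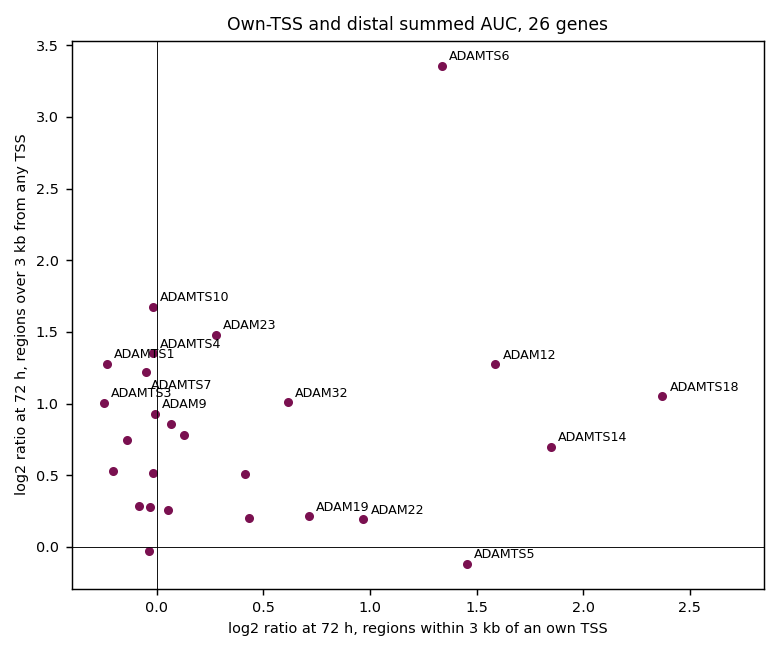
Log2 ratio of the scaled AUC at 72 h to solvent over the regions within 3 kb of an own TSS (horizontal axis) and over the regions more than 3 kb from any TSS (vertical axis), with 1 point for each of the 26 genes that have both. Of these points, 24 lie above 0 on the vertical axis and 14 to the right of 0 on the horizontal axis. The same counts were not made for all protein-coding genes.

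Members of the family are long genes, with a median length of 92.2 kb beside 27.5 kb for all protein-coding genes. The window of a long gene is wider, because it spans the gene body and 20 kb on either side. Over the 44 genes, length and number of regions had a Spearman's rho of 0.48, and over the 38 genes with a ratio, length and the log2 ratio at 72 h had a rho of 0.45. The solvent AUC and the log2 ratio had a rho of -0.53, so that genes with little AUC in solvent tended to have the higher ratios. These are descriptions across genes that share the same lists, and the part of length or of low solvent AUC in the family's higher share was not tested.

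Short motifs were looked for on either strand, within the 201 bp around the summit of each region. The AP-1 motif TGAGTCA was present in 95 of the 222 distal regions of the family (42.8%, 95% Wilson interval 36.5 to 49.4%, which covers counting error only), beside 37.5% of all distal regions. It occurred in 19 of the 39 distal regions with a peak at every time of TGFβ1 and none in solvent (48.7%), beside 41.3% of all such regions, and in none of the 6 distal regions lost at 72 h (interval 0 to 39.0%), beside 8.56%. In each of these sets the share over all distal regions of the kind lay within the interval of the family's share. Among the family's regions within 3 kb of a TSS, this was not so for the gained ones. There the motif was in 2 of the 17 gained at every time (11.8%, interval 3.29 to 34.3%), beside 35.8% of all such regions. It was in 5 of the 28 gained at 72 h (17.9%, interval 7.88 to 35.6%), beside 36.2%, and the 17 are among these 28. Over all 160 family regions within 3 kb of a TSS it was in 18.8% (interval 13.5 to 25.5%), beside 22.3%. For those with a peak in every list it was 20.2%, beside 20.4%. For those lost at 72 h, and those in every list and 1.5-fold higher at 72 h, the share over all such regions also lay within the interval. Of the sequences printed above, the ADAM12, ADAMTS12 and ADAMTS19 regions hold this motif, and the ADAMTS12 region holds it more than once.

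The RUNX motif TGTGGTT was present in 9 of the 39 distal regions gained at every time (23.1%, interval 12.6 to 38.3%), beside 7.79% of all such regions, which is below that interval. Of the 46 distal regions that had a peak in every list and were at least 1.5-fold higher at 72 h, 2 (4.35%) held it, beside 8.95% of all such regions. Among the printed sequences it is found in both ADAMTS6 regions, in the ADAMTS12 region and, in 2 copies, in the ADAMTS14 region, while the ADAM19, ADAMTS3 and ADAMTS18 sequences hold neither motif. The E-box CACCTG, which SNAIL and ZEB factors bind, was present in 18.5% of the family's distal regions (beside 17.7% of all), the TEAD motif GGAATG in 20.3% (beside 17.4%) and the SMAD palindrome GTCTAGAC in 0 of 222 (beside 0.326%). Several of the distal regions belong to the same gene, so these counts are not independent, and a match is not a bound site. Each motif was counted in several overlapping sets of distal and proximal regions, and only some of these shares are given. The intervals were not adjusted for the number of sets.

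Genes that work with these proteases were examined as well, namely the TIMP inhibitors and RECK, the proprotein convertases that activate the zymogens, the iRhom partners of ADAM17 (RHBDF1 and RHBDF2), the tetraspanin partners of ADAM10, and matrix substrates. Of these 24 genes, 1 was past 1.5-fold at 6 h, 2 at 24 h and 5 at 72 h, all of them higher, beside 4.44%, 10.5% and 11.6% of all protein-coding genes. At 6 and 24 h this is no more than the background. ACAN, which encodes aggrecan, had 4119, 8179, 10988 and 11326, a log2 ratio of 1.46 at 72 h, and FBN1, which encodes fibrillin, had 6050, 7953, 10238 and 11766, or 0.96. LTBP1, which binds latent TGFβ to the matrix, was at 0.63, the convertase gene PCSK5 at 0.60 and the tetraspanin gene TSPAN5 at 0.61. The inhibitor genes TIMP1, TIMP2, TIMP3 and TIMP4 lay between -0.04 and 0.30 and RECK at 0.33, none of them past 1.5-fold. RHBDF1 and RHBDF2 were both at 0.11. The median of the 24 genes was 0.12 at 72 h, close to that of all protein-coding genes.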

How the data were processed

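The series holds 8 ATAC-seq libraries of MCF10A cells, 2 for each of 4 conditions. Per the methods and the submitters' processing notes, the authors used Trimmomatic 0.38 for trimming and Bowtie2 2.4.5 for mapping to GRCh38, removed duplicates with Picard, filtered them with SAMtools 1.4.1 and called peaks with Genrich 0.5 on both replicates of a condition together, keeping an AUC over 200 and an adjusted p below 0.01 and removing blacklisted regions. The deposited files are 4 peak lists, whose conditions were taken from the names the authors gave them. The signal value deposited for each peak, the AUC, grows with depth and with the width of the peak, was not scaled between lists by the authors and has no value per replicate. The deposited −log10 q-values and summit offsets were used only to check the lists and to place the summits. The number of reads left after filtering is not given in the sources used here. Wilson intervals cover counting error only.

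Peaks that overlapped by at least 1 bp were merged across lists. Each list was scaled by its median log2 ratio to solvent over regions with a peak in both lists within 3 kb of a TSS (log2 shifts of 0.44, 0.38 and 0.25). Genes and TSSs came from GENCODE 44, and sequence from hg38. AUC was summed over the regions that overlapped a gene body and 20 kb on either side, and a gene was called higher or lower at 1.5-fold. No ratio was formed against a list without a peak. Within the window, a region within 3 kb of any annotated TSS of the member was placed there, and the others by their summit. Distal regions lay more than 3 kb from any TSS.

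Described in full were the 8 genes of highest and the 6 of lowest ratio at 72 h among those with a peak in every list, 11 fixed genes, and the regions named above by their rules. Further regions of these genes were named after their values had been seen. The members, roles, partner genes and motifs were chosen with earlier results of these data known. In all, 9 other settings were tried, of which 2 were chosen after seeing the data. The calculations were tested on simulated data and used matplotlib 3.10.9, scipy 1.17.1, pandas 2.3.3 and numpy 2.4.6 under Python 3.11.15.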

Additional observations from a re-analysis of the deposited data

How the results depend on the processing

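No paired analysis was possible because each list pools both replicates of its condition, and for the same reason no replicate could be left out. Without scaling of the lists, the genes past 1.5-fold higher were 18, 25 and 22 of 38 at 6, 24 and 72 h, beside 29.5%, 32.6% and 22.5% of all protein-coding genes, and the median log2 ratios were 0.56, 0.70 and 0.64. With scaling over all shared regions, which moves the median of all genes at 72 h from 0.08 to -0.06, 9 genes were higher at 72 h, beside 8.28% of all, and the median at 6 h was 0.059. As AUC per covered base, 0 genes were higher at each time, and the medians were -0.044, which reverses the sign, 0.019 and 0.0096. At a threshold of 2-fold, 1 gene, ADAMTS6, was higher at 6 h, beside 1.36% of all, and 6 at 72 h, beside 4.44%. With a minimum AUC of 400, 0 regions were lost at any time.

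Over distal regions only, a setting chosen after seeing the data, 1 gene, ADAM22, was lower at 6 h and the median log2 ratios were 0.31, 0.64 and 0.75. Over genes with a solvent sum of at least 1000, also chosen after seeing the data, 5 genes were higher at 6 h, beside 2.22% of all. All other counts and medians of the 9 settings, 72 values, stayed within 1.5 times the count or within the spread of the median. That spread is a 95% interval over the genes of the family, which treats them as independent although they share the same lists. The counts of lower genes among the 72 values were 0 both there and in the main setting, which has little weight because few of all genes were lower. Of single genes, ADAMTS10 at 72 h became -0.019 over regions nearest to its own TSS, and ADAMTS5 became -0.33 as AUC per base and -0.12 over its distal region. The causes of these differences were not tested, except that the AUC per base leaves out the covered length.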
